A study of Mus musculus with 8 samples.

Results

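The HA antibody C29F4 called 11010 EHMT2 peaks in DMSO-treated mouse embryonic stem cells (mESCs), and 3546 of them (32.2% of the list) overlapped neither of the peak lists obtained with a second HA antibody, ab9110. These 3546 regions, the C29F4-only peaks, were selected on the absence of any shared base with an ab9110 peak from DMSO-treated cells or from cells treated with the degrader dTAG, on chromosomes 1 to 19, X and Y. Membership therefore rests on the calls themselves, and every share that follows from those calls is a description. Of the remaining C29F4 peaks, 5079 were also called by ab9110 in DMSO alone, 2295 by ab9110 in both treatments and 90 by ab9110 after dTAG alone.

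All samples came from the EHMT2-dTAG-mcherry mESC line of a BL6/129 hybrid background, in which EHMT2 carries a degron and an HA tag, and all were collected after 24 h in DMSO or dTAG. The C29F4 list merged 2 ChIP samples, from independent clones in DMSO. The ab9110 lists came from 1 DMSO and 1 dTAG library, and a list of peaks in dTAG input chromatin served as background. No C29F4 sample was treated with dTAG, so the loss of these peaks on degradation of EHMT2 was not measured with the antibody that called them, and the antibody cannot be told apart from the clones and the experiment.

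EHMT2 (G9a) acts with EHMT1 to mono- and dimethylate lysine 9 of histone H3, a mark of silent chromatin. It has no DNA-binding domain that picks its sites and is brought to chromatin by partner proteins and by histone marks. In mESCs it is known for silencing germline genes, genes of the early embryo and transposable elements. LINE-1 elements are among the most abundant of these in the mouse. A full-length copy has a promoter at its 5′ end, a first reading frame for an RNA-binding protein and a second, longer one for the endonuclease and reverse transcriptase.

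Sequences at the summits are shown first for C29F4-only peaks on elements with this layout, because their place on the element separated them from the peaks shared with ab9110. Each line gives 151 bases centred on the summit in GRCm38 (mm10), read from RefSeq on the strand of the reading frames, with CpG dinucleotides in capitals. The peaks near Gm15501 and Itih5l-ps had the highest fold of all C29F4-only peaks, and both summits lay in the second reading frame. The peak near Gm49627 was the next strongest and lay further along the same frame. The peak near Gm29067 was among the strongest C29F4-only peaks upstream of the first frame. The last line shows, for comparison, a peak upstream of the first frame that ab9110 called in both treatments and that overlapped no input peak, near Lrrc69.
Second frame, near Gm15501, chr7:93216966-93217116, minus strand: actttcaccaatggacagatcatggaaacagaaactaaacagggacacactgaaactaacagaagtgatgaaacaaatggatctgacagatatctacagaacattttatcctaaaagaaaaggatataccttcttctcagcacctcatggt
Second frame, near Itih5l-ps, chrX:150865467-150865617, minus strand: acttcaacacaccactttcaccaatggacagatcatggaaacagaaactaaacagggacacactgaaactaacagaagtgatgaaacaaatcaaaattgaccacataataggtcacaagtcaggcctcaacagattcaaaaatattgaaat
Second frame, near Gm49627, chr16:64007697-64007847, plus strand: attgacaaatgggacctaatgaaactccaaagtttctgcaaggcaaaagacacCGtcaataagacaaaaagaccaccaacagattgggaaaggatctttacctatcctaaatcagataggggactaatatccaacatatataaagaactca
Upstream of the first frame, C29F4 only, near Gm29067, chr4:54632823-54632973, minus strand: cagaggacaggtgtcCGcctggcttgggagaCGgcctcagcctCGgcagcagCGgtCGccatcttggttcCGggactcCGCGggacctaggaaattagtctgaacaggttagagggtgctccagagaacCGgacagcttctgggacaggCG
Upstream of the first frame, shared with ab9110, near Lrrc69, chr4:14679381-14679531, minus strand: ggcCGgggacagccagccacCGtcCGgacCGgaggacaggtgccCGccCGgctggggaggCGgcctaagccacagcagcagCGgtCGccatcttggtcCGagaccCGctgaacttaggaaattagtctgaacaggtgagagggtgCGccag

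The lines from the second frame held 0, 0 and 1 CpG, and the upstream lines held 10 and 12. Measures of sequence were taken over windows that reached 150 bases to either side of the summit. The windows of the peaks near Gm15501 and Itih5l-ps shared a stretch of 150 identical bases, which was found in 5 C29F4 windows, 4 of them C29F4-only. Parts of these windows occurred up to 3083 times in the genome for Gm15501 and Itih5l-ps and up to 6542 times for Gm49627, counting 100-base words. The median copy number of the words was 6 for Gm15501, 1 for Itih5l-ps and 4540.5 for Gm49627. The authors let a read with many possible locations stand at 1 of them, so which copy carried the signal is uncertain for repeated stretches, and least so for the Itih5l-ps window.

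To place every summit, all 14481 uninterrupted soft-masked runs of at least 5 kb were searched for a first reading frame of at least 300 codons followed on the same strand by a second of at least 1000 codons. This found 3364 elements with a median of 371 codons in frame 1 and 1281 codons in frame 2, the layout of full-length LINE-1 copies; repeat families are not named in the reference used here. The windows of 715 C29F4-only peaks (20.2%, 95% interval 18.9 to 21.5) lay in or aligned to such an element, against 30.2% (28.9 to 31.4) of the peaks also called by ab9110 in DMSO and 47.3% (45.3 to 49.4) of those called in both treatments. Intervals here and below are exact binomial (Clopper-Pearson) intervals over peaks. They cover counting error only, because each condition was 1 list with no replicate check.

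As placed, the C29F4-only summits were spread along the whole element, whereas the shared peaks gathered before the first frame. Of the 715, 278 summits (38.9%, 35.3 to 42.6) lay upstream of frame 1, 104 (14.5%, 12 to 17.3) in frame 1, 232 (32.4%, 29 to 36) in frame 2 and 101 (14.1%, 11.7 to 16.9) downstream. Only 188 of the 715 lay inside a found element: 68 upstream, 47 in frame 1, 70 in frame 2 and 3 downstream. The others took their place from their best alignment to an element elsewhere. The downstream share thus rests almost wholly on such alignments, and the sequence around those summits need not hold the whole layout. Of the 1532 peaks also called by ab9110 in DMSO, 1455 (95%, 93.8 to 96.0) lay upstream and 12 (0.783%, 0.405 to 1.36) in frame 2. Of the 1086 called in both treatments, 1074 (98.9%, 98.1 to 99.4) lay upstream and 0 in frame 2, which allows a share of up to 0.339%. Seen from the element, C29F4-only peaks made up 94.7% (91.1 to 97.1) of the 245 C29F4 peaks in frame 2 and 78.8% (70.8 to 85.4) of the 132 in frame 1. They made up 9.87% (8.79 to 11) of the 2817 upstream. Windows rich in repeated 100-base words (limit given below) held 48.9% of C29F4-only peaks upstream and 84.6% in frame 1. The share was 73.7% in frame 2 and 21.8% downstream. Upstream, it was 79.8% for peaks also called by ab9110 in DMSO and 94.1% for those called in both treatments. Which copy carried the signal is uncertain for such windows. Only C29F4 summits were placed, so where ab9110 peaks lay along the elements is not shown.

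**Figure D1:**
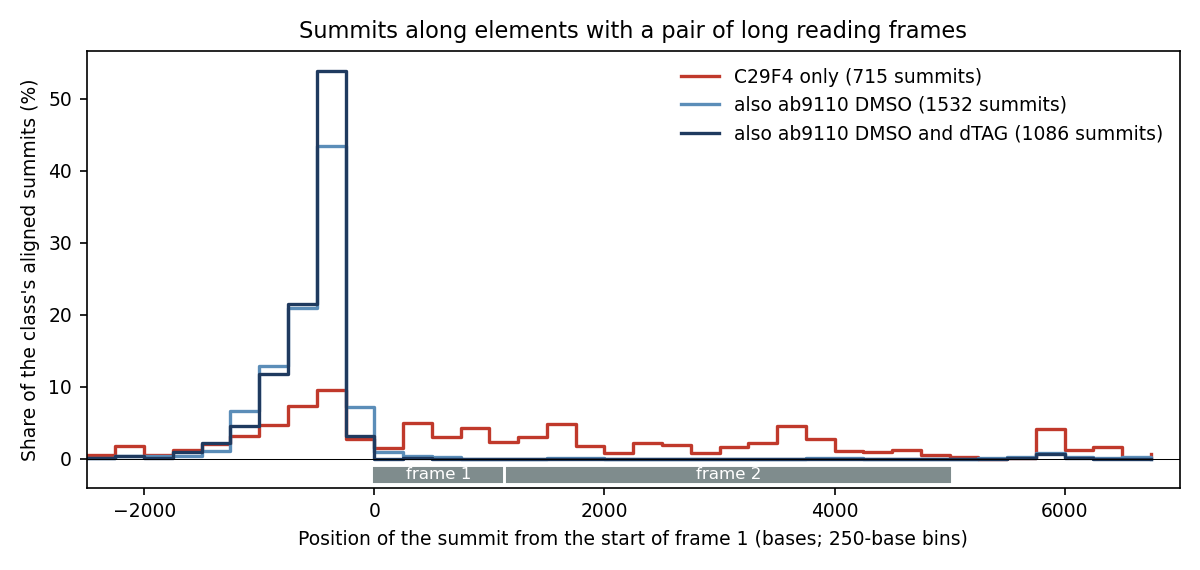
Share of each class's aligned summits in 250-base bins (y axis, percent) against the position from the start of the first reading frame (x axis, bases); grey bars mark the median extent of the frames. Summits shared with ab9110 peak just upstream of frame 1, while the 715 C29F4-only summits continue through both frames and beyond. Of these 715, 188 lay inside a found element, and the others are drawn at their best alignment to one.

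Frame 2 began a median of 1156 bases from the start of frame 1. Within it, 34 C29F4-only summits lay before 1500 bases, 48 between 1500 and 2000 and 53 between 3500 and 4000, while the other 500-base bins up to 5000 bases held 13 to 28 each. The peaks of the frames resembled each other in size. Their median summit pileup, the number of fragments stacked at the summit, was 16 in frame 1 and 16 in frame 2, and their median width was 338 bp and 334 bp. Upstream C29F4-only peaks had a median pileup of 23 and a width of 439 bp, below the 42 fragments and 876 bp of the upstream peaks also called by ab9110 in DMSO and the 78 fragments and 1634 bp of those called in both treatments. Base composition followed the place on the element: median GC was 59.3% with 12 CpG per window upstream, and 37.7% and 37.5% with 2 CpG each in frames 1 and 2.

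An ab9110 peak often stood elsewhere on the same copy. Of the 70 C29F4-only summits that lay directly inside frame 2 of an element, 63 shared the element with an ab9110 DMSO peak, as did 41 of 47 in frame 1 and 18 of 68 upstream of frame 1. Over all 3364 elements, 2253 (67%) held an ab9110 DMSO peak. The rule bars a C29F4-only peak from overlapping an ab9110 peak, and shared peaks gathered upstream of frame 1. The low count upstream therefore follows in part from the rule. In the set aligned to an element, 42.3% of the C29F4-only peaks in frame 1 lay within 500 bp of an ab9110 DMSO peak, but 5.17% of those in frame 2 did.

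Sequence families separated the bodies of these elements from their 5′ ends in part. Linking C29F4 windows with at least 90% identity over at least 200 bases formed 30 families of 5 or more windows, and 677 C29F4-only peaks (19.1%, 17.8 to 20.4) belonged to 1 of them. The largest family, with 2928 windows, held 396 C29F4-only peaks, or 13.5% of its windows, of which 189 aligned upstream of frame 1, 103 in frame 1 and 79 in frame 2. The next family held 154 windows, of which 137 (89.0%) were C29F4-only; 88 of these aligned to frame 2 and 0 to frame 1. These families and those of 39 windows, all C29F4-only with 30 in frame 2, and of 13 windows, 12 of them C29F4-only, held the most C29F4-only peaks. Families with 9 or more C29F4-only windows, none of them aligned to a LINE-1-like element, varied in their C29F4-only share. It was 9 of 112 windows (8.04%) and 9 of 51 (17.6%) in the larger of them. In the smaller it was 11 of 31 (35.5%), 10 of 24 (41.7%) and 9 of 14 (64.3%), the last with the peak near Nebl described below. A copy elsewhere in the genome, more than 1 kb away and in an ab9110 DMSO peak, existed for 761 C29F4-only peaks (21.5%, 20.1 to 22.8), including 96.9% of those in masked runs of at least 5 kb.

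Over the whole set, C29F4-only peaks lay in unmasked sequence more often than the shared peaks and had a lower GC content, close to that of the genome. Summits of 2127 (58.3% to 61.6% by the exact interval) lay in unmasked sequence, 995 (28.1%, 26.6 to 29.6) in a soft-masked run under 5 kb and 424 (12%, 10.9 to 13.1) in a longer run. Longer runs held 25.9% (24.7 to 27.1) of the peaks also called by ab9110 in DMSO and 44.2% (42.1 to 46.2) of those called in both treatments. Over all bases, 39.6% of C29F4-only sequence was masked, against 55.4%, 69.9% and a genome share of 36.4%. Median GC in the window at the summit was 42.5%, with quartiles of 38.5% and 47.8%, against 48.5% and 55.1% for the shared classes and 41.5% for 52935 windows spaced every 50 kb. A window of a C29F4-only peak held a median of 2 CpG, against 4, 10 and, in the spaced windows, 2. Lower masked share, lower GC and fewer long runs than in all the other C29F4 peaks together held on 20 of the 20 chromosomes with at least 20 C29F4-only peaks. The 90 peaks called by ab9110 after dTAG alone were near the C29F4-only peaks in these measures, with 11.1% (5.46 to 19.5) in long runs, 42.4% of bases masked, a median GC of 45.7% and 13.3% (7.08 to 22.1) aligned to a LINE-1-like element.

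**Figure D2:**
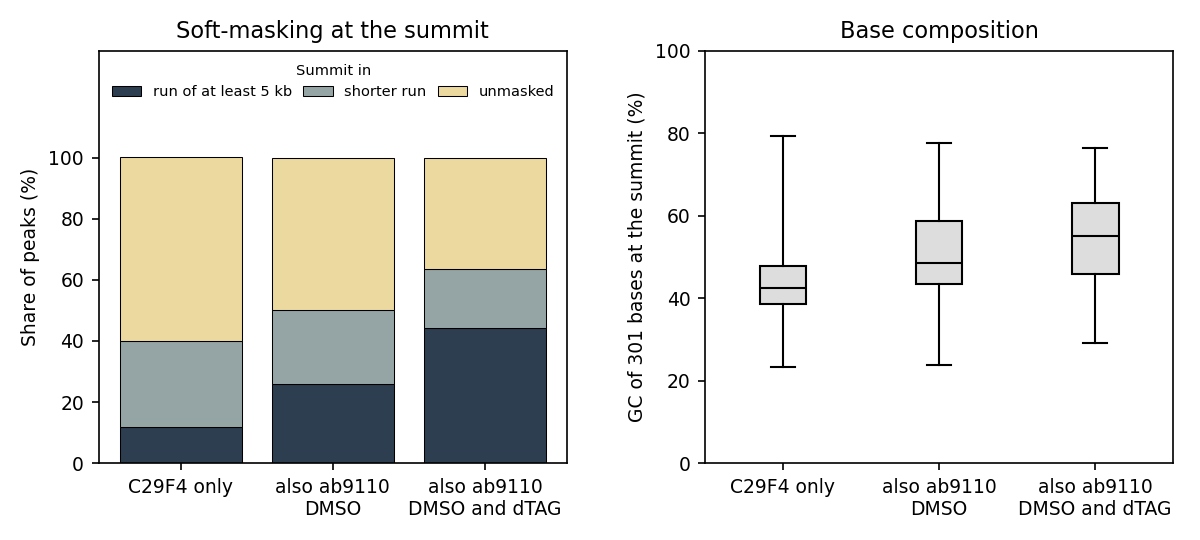
Left, share of peaks (y axis, percent) by masking at the summit in 3 classes of C29F4 peaks; right, GC of the window at the summit (percent), with the box from lower to upper quartile, the line at the median and whiskers to the lowest and highest value. From C29F4 only to called in all 3 ChIP lists, the share in runs of at least 5 kb goes from 12% to 44.2% and median GC from 42.5% to 55.1%.

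The contrast was smaller away from the LINE-1-like windows. Among windows that aligned to no such element, 74.8% of C29F4-only summits and 70.3% of the others were unmasked. There, 25.7% of bases were masked in the 2831 C29F4-only peaks and 32.3% in the 4834 others, and median GC was 42.9% and 45.8%. Among windows in which all 100-base words were unique in the genome, masked shares were 27.1% and 31.1%. At least 50% of the 100-base words were repeated in 14.0% (12.8 to 15.1) of C29F4-only windows, against 24.7% and 44.7% of the shared classes and 9.10% of the spaced windows. This share was 82.3% in masked runs of at least 5 kb and 1.93% (1.39 to 2.61) in unmasked sequence.

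The strongest C29F4-only peaks outside these elements and those at promoters are shown because every 100-base word of their windows occurs 1 time in the genome, so that a read of that length has 1 exact origin. The fold is the authors' ratio of pileup plus 1 to background plus 1 at the summit. Lines give 151 bases centred on the summit on the plus strand, with CpG dinucleotides in capitals.
Unmasked, near the pseudogene Gm9701, chr3:62938787-62938937, plus strand: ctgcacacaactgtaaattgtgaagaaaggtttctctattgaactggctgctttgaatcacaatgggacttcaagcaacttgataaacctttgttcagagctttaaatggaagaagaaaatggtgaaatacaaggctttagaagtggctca
Unmasked, intron of Csmd3, chr15:48200807-48200957, plus strand: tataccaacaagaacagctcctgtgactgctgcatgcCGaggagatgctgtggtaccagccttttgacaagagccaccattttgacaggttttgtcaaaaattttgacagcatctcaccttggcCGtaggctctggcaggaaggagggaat
Unmasked, near the pseudogene Gm11449, chr2:161425565-161425715, plus strand: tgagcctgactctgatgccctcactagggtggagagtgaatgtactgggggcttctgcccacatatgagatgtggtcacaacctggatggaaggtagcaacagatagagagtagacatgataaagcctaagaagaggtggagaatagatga
Short masked run, intron of Kmt2e, chr5:23435800-23435950, plus strand: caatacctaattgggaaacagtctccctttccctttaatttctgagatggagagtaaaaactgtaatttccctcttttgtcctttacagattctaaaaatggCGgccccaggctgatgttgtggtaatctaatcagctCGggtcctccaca
Promoter of Timm8a2, chr14:122034498-122034648, plus strand: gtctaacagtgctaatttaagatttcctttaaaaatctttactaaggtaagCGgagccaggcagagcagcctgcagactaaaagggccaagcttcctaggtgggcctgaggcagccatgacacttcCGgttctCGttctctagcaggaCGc
Promoter of Scn2a, chr2:65620059-65620209, plus strand: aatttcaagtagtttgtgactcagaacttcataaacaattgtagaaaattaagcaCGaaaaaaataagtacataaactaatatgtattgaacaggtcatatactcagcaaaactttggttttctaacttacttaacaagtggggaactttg

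The strongest of these lay at chr5:23435571-23436301, in an intron of Kmt2e, which encodes a SET-domain protein of the trithorax family. Its fold was 8.98 with 56 fragments at the summit, 1426 bp from a transcription start of Kmt2e. It lay 18991 bp from the nearest ab9110 DMSO peak and 561 bp from an ab9110 dTAG peak. The peak near Gm9701 (fold 8.41, 38 fragments) was 4273 bp from the nearest ab9110 DMSO peak, which was itself weak, with a fold of 3.22 and 9 fragments. The peak in an intron of Csmd3, a giant transmembrane protein of neurons, had a fold of 8.34 with 39 fragments and was the most isolated of the 10 strongest, 196043 bp from an ab9110 DMSO peak. The peak near Gm11449 had a fold of 8.34 with 48 fragments.

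The other members of the 10 strongest were an intronic peak of Csrnp3, a nuclear protein gene, with a fold of 7.98, a peak 5269 bp from Nebl, which encodes an actin-binding protein of heart muscle, with a fold of 7.86, and an intronic peak of the antisense transcript Gm16070 with a fold of 7.76. Together with the LINE-1-like peaks near Gm15501 (fold 13, 66 fragments), Itih5l-ps (11.9, 69 fragments) and Gm49627 (9.60, 78 fragments), 3 of the 10 lay in masked runs of at least 5 kb, 4 in shorter runs and 3 in unmasked sequence. The 3 LINE-1-like peaks were 904, 201 and 154 bp from the nearest ab9110 DMSO peak. Those neighbours had folds of 8.79, 3.22 and 3.14.

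Promoters were a small part of the set. Within 1 kb of an annotated transcription start lay 212 C29F4-only summits (5.98%, 5.22 to 6.81), 109 of them at protein-coding genes, against 6.73% (6.06 to 7.46) of the peaks also called by ab9110 in DMSO and 9.76% (8.58 to 11) of those called in both treatments. The strongest of those 109 was the peak of Timm8a2, a mitochondrial import chaperone gene, at chr14:122034342-122034925, with a fold of 6.43 and 10 CpG in the window. Peaks at Scn2a, a neuronal sodium channel gene (fold 5.97, 637 bp from the start), and Kcnt2, a potassium channel gene (fold 5.39, 673 bp), followed, with 1 and 0 CpG. In the set as a whole, 58.9% (57.2 to 60.5) of summits were intergenic, 36.9% (35.3 to 38.5) intronic and 4.26% (3.62 to 4.98) exonic, and the median distance to a start was 20011 bp. These positions differed little from the other C29F4 peaks, of which those also called by ab9110 in DMSO were intergenic in 62.0% (60.7 to 63.4).

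Gene groups were read against the 32.2% of all C29F4 peaks that were C29F4-only. Near olfactory receptor genes, the odorant receptors of the nose, 47 of 134 C29F4 peaks within 10 kb (35.1%, 27.0 to 43.8) were C29F4-only, the strongest 195 bp from Olfr1330 with a fold of 5.42. Near vomeronasal receptor genes, which sense pheromones, the count was 22 of 63 (34.9%, 23.3 to 48.0), with the pseudogene Vmn2r-ps100 first at a fold of 5.17, and 10 of the 22 windows were multicopy. Zinc finger protein genes, many of which encode KRAB repressors of transposons, had 30 of 101 (29.7%, 21 to 39.6), led by an intronic peak of Zfp638 with a fold of 4.83. All 3 intervals contain the share of the whole list.

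The intervals of the smaller groups also contained the share of the whole list. Among germline and meiosis genes 8 of 15 peaks within 10 kb (53.3%, 26.6 to 78.7) were C29F4-only. These lay near Sycp1 (fold 4.74) and Sycp3 of the synaptonemal complex, Mael, Taf7l, the RNA-binding germ cell factors Dazl and Ddx4, Tex15 and Rhox13. Genes of zygotic genome activation had 4 of 7 (57.1%, 18.4 to 90.1), near Tdpoz2 (fold 4.96), Tdpoz1, Gm4340 and Pramel1. Imprinted genes had 5 of 10 (50.0%, 18.7 to 81.3), near Kcnq1 (fold 3.85), Ube3a, Airn, Plagl1 and Nespas. Developmental transcription factor genes had 3 of 7 (42.9%, 9.90 to 81.6), near Lhx3 (fold 3.45), Pax5 and Nkx6-2. Ribosomal protein genes had 1 of 4, at Rpl39l (fold 4.53). None of the 7 peaks near genes of H3K9 methylation was C29F4-only, which allows a share of up to 41% by the exact interval, and neither were any of the 4 near pluripotency factor genes or the 2 near histone genes. The clustered protocadherin genes had 0 C29F4 peaks within 10 kb.

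Chromosome 8 carried far more C29F4-only peaks than any other chromosome. It held 455 of the 3546 (12.8%) on 4.75% of the chromosome length, or 3.52 per Mb, against 1.02 to 1.74 per Mb on the other autosomes and 0.503 on X. C29F4-only peaks made up 48.5% (45.2 to 51.7) of the C29F4 peaks on chromosome 8, compared with 27.5% to 35.2% on the other autosomes and 18.6% (15.2 to 22.5) on X. Their counts per 10 Mb of chromosome 8 ran from 13 to 90, the highest between 60 and 70 Mb, and no bin was empty. Both full lists were also dense there, with 7.26 C29F4 peaks and 20.7 ab9110 DMSO peaks per Mb, against 3.44 to 5.07 and 13.9 to 18.9 on the other autosomes.

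The summit background moved with chromosome 8 in the ab9110 experiment but not in the C29F4 list. The background, in fragments, was reconstructed from the deposited fold and p-value, and its median over ab9110 DMSO peaks was 4.40 on chromosome 8 against 2.93 to 3.67 on the other autosomes. Over ab9110 dTAG peaks it was 3.31 against 1.91 to 2.55, and over dTAG input peaks 1.53 against 0.997 to 1.26. Over C29F4 peaks it was 6.95 on chromosome 8, within the 6.25 to 7.64 of the other autosomes. On X the ab9110 medians lay below those of all autosomes, at 2.36 (DMSO), 1.48 (dTAG) and 0.978 (input). The C29F4 median on X was again 6.95. Whether the C29F4 measure can register a change over a whole chromosome was not tested. The background stood at the lowest value of the library in 3.63% of ab9110 DMSO peaks on chromosome 8, against 8.41% to 17% elsewhere on autosomes, and in 21.6% of C29F4 peaks, against 13.5% to 22.3%. Chromosome copy number was not measured in these files, and the part of the background in the excess was not tested.

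**Figure D3:**
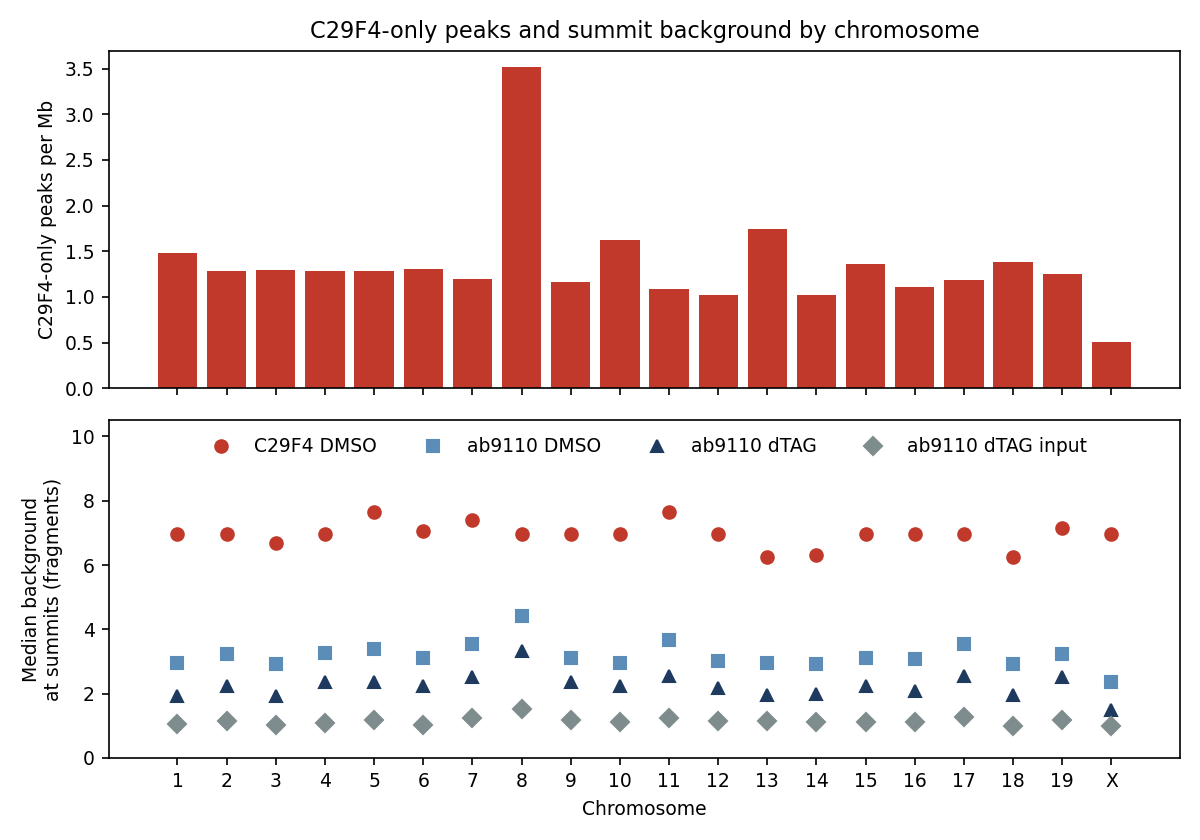
Upper panel, C29F4-only peaks per Mb (bars) for chromosomes 1 to 19 and X; lower panel, median background at summits in fragments for the C29F4, ab9110 DMSO, ab9110 dTAG and ab9110 dTAG input lists. Chromosome 8 stands at 3.52 peaks per Mb, and its background is the highest autosomal value in each of the 3 ab9110 lists but not in the C29F4 list.

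The excess on chromosome 8 was largest among weak and intermediate peaks. Peaks with under 50% chance of passing the ab9110 DMSO threshold at that library's depth, as computed below, numbered 215 on chromosome 8, or 1.66 per Mb, against 0.266 to 0.528 per Mb on the other autosomes. Those with 50% to 90% chance numbered 184, or 1.42 per Mb, against 0.416 to 0.855. Those with at least 90% chance numbered 56, or 0.433 per Mb. This was near the top of the range of 0.184 to 0.440 on the other autosomes and above their median of 0.273. Median GC of the C29F4-only peaks on chromosome 8 was 39.5%, against 40.9% to 44.0% on the other autosomes. Without chromosome 8, the C29F4-only share of the list was 30.7% (3091 of 10071 peaks).

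Local clusters were found on chromosomes 8 and 13. In 1-Mb windows, 763 of the 1684 windows with any C29F4-only peak held exactly 1, and 12 windows held at least 10, of which 10 were on chromosome 8. The densest were 63 to 64 Mb of chromosome 8 with 19 C29F4-only peaks of 32 C29F4 peaks, around Spock3, a proteoglycan gene, and 56 to 57 Mb with 18 of 24, around Glra3, a glycine receptor gene, and Hpgd, a prostaglandin dehydrogenase gene. On chromosome 13, 66 to 67 Mb held 17 of 22 and 65 to 66 Mb held 14 of 14. There, 12 of the 17 and 10 of the 14 windows were multicopy, with medians of 4 and 4.5 genome copies of the most repeated 100-base word, although 9 summits in each window were unmasked. In the chromosome 8 windows 1 of 19 and 1 of 18 were multicopy. Windows at 65 to 66 Mb and 60 to 61 Mb of chromosome 8 held 14 each, around the ubiquitin ligase gene March1 and the aminotransferase gene Aadat.

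The C29F4-only peaks had a lower median fold than the rest of the C29F4 list, and peak strength is not independent of the calls that chose them. Their fold ran from 1.87 to 13 with a median of 3.38, against medians of 3.83 for the peaks also called by ab9110 in DMSO, 4.77 for those called in both treatments and 3.25 for the 90 called after dTAG alone, and their median lay at the 38.0 percentile of the list. Pileup ran from 12 to 84 fragments with a median of 19, against 31, 49 and 24.5, and the median width was 376 bp, against 560 bp, 1036 bp and 436 bp. Still, 199 C29F4-only peaks (5.61%) exceeded a fold of 5.

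How many of them the ab9110 DMSO library could have called was computed by thinning the fragments at each C29F4 summit to 57.9%, the ratio of mean coverage of the libraries, and applying the lowest −log10 p of the ab9110 DMSO list, 3.85. On this measure 63.3% of C29F4-only peaks, or 2246 of 3546, would have been expected to pass, against 82.1% and 90.3% of the shared classes. At the coverage and threshold of the dTAG library, 33.7% and 4.28, the figure was 29.3%. The C29F4-only share was 53.2% (49.0 to 57.4) in the weakest bin of C29F4 peaks, with under 25% chance of passing, and 59.6% (57.1 to 62.1) between 25% and 50%. It fell to 28.1% (26.0 to 30.2) between 90% and 99% and to 6.56% (5.77 to 7.42) above. The chance takes each called C29F4 summit at its observed pileup and assumes the same enrichment with ab9110. It is not a calibrated rate: in the weakest bin 298 of 560 peaks were C29F4-only, and the others overlapped an ab9110 peak. The bin above 99% held 235 C29F4-only peaks. They kept the features of the set: median GC was 45.5% against 59.1% for the 3347 other peaks of the bin, and 10.2% against 50.8% lay in masked runs of at least 5 kb. Of those aligned to an element, 48.4% against 0.109% lay in frame 2. The bin has no upper limit, so these groups were not matched in strength. Over the whole list, folds reached 13 in C29F4-only peaks and 63.6 in the other C29F4 peaks. Thinning covers depth alone; antibody, clone and local background were not modelled.

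**Figure D4:**
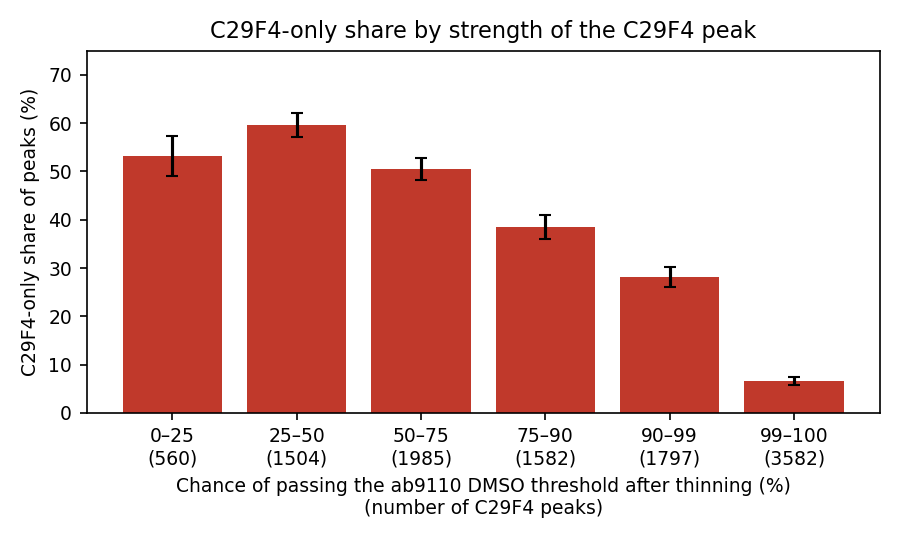
C29F4-only share of C29F4 peaks (y axis, percent; bars start at 0, error bars are exact 95% binomial intervals) against the chance that the summit passes the ab9110 DMSO threshold after thinning (x axis, percent, with the number of peaks). The share is 53.2% in the weakest bin and 6.56% in the strongest.

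Near misses of the overlap rule were limited in number. Within 500 bp of an ab9110 DMSO peak lay 341 C29F4-only peaks (9.62%, 8.67 to 10.6) and within 2 kb 772 (21.8%, 20.4 to 23.2), while the median distance was 14416 bp and 158 peaks (4.46%) were more than 100 kb away. Within 500 bp of an ab9110 dTAG peak lay 57 (1.61%, 1.22 to 2.08). Just outside the overlap, 3 C29F4-only peaks touched an ab9110 DMSO peak without sharing a base, at chr11:16526901-16527195 (fold 2.60), chr2:117275993-117276433 (fold 3.99) and chr5:69124763-69125024 (fold 2.97), and 11 lay within 10 bp of an ab9110 peak. Just inside it, C29F4 peaks at chr16:68916586-68916960 (fold 2.72) and chr19:28194631-28194924 (fold 2.31) shared 1 base with an ab9110 DMSO peak and thus counted as shared. Peaks of the ab9110 dTAG input overlapped 14 C29F4-only peaks (0.395%, 0.216 to 0.662), against 0.981% of all C29F4 peaks and 1.12% and 1.61% of the shared classes. No peak list from the inputs of the C29F4 samples was used. The C29F4-only peaks were also narrower at the median than these shared classes, and the overlap was not adjusted for width.

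Short sequence motifs were counted in the windows at the summit, on both strands, as descriptions of the letters only. The core of the site of YY1, a zinc finger factor that binds LINE-1 promoters, spelled GCCATNTT, was present in 15.2% (14.0 to 16.4) of C29F4-only windows, 32.8% (31.5 to 34.1) and 52.6% (50.6 to 54.7) of the shared classes and 6.59% of the spaced windows. Upstream of frame 1 on the LINE-1-like elements, 28.4% (23.2 to 34.1) of C29F4-only windows held it, against 80.7% (79.2 to 82.3) of the 2529 windows called by ab9110 in DMSO with or without dTAG. In unmasked sequence the shares were 13.4% (11.9 to 14.9), 17.9% (16.5 to 19.5) and 16.7% (14.2 to 19.4). Both upstream sequences printed above, near Gm29067 and Lrrc69, hold it within their windows.

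Among the other motifs, the CCAAT box CCAATCA was found in 5.88% (4.92 to 6.96) of unmasked C29F4-only windows, against 3.92% (3.20 to 4.75) and 4.32% (3.04 to 5.93) of the unmasked shared windows and 3.75% of the spaced windows. The KLF site GGGTGTGG was found in 2.59% (1.95 to 3.35) of unmasked C29F4-only windows, against 4.71% (3.92 to 5.62) and 5.28% (3.86 to 7.02), with 1.80% in the spaced windows. The octamer ATGCAAAT of POU factors such as OCT4 stood at 4.09% (3.29 to 5.02), 4.75% and 4.80%, with 2.71% in the spaced windows. The ETS site CCGGAAGT stood at 0.846% (0.502 to 1.33), 0.753% and 3.12% (2.05 to 4.53), with 0.208%. For the SOX site CATTGTT the shares were 7.85%, 9.23% and 8.99%, with 6.04%. The CTCF core AGGGGGCN was at 3.10%, 3.68% and 4.68%, with 2.34%, and the E-box CACGTG at 2.68%, 2.81% and 5.76%, with 2.87%. The NRF1 site GCGCATGC was at 0.329% (0.132 to 0.677), 0.277% and 1.32% (0.660 to 2.35), with 0.310%. The cyclic AMP response element TGACGTCA was at 0.0940% (0.0114 to 0.339), 0.277% and 0.60% (0.195 to 1.39), with 0.181%.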

How the data were processed

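HA ChIP-seq peak lists were analysed from EHMT2-dTAG-mcherry mESCs. The authors trimmed and concatenated reads, aligned them to mm10 with STAR, giving each multimapping read 1 location in random order, removed duplicates and blacklisted regions and ran MACS2 over the fragments, keeping q-values under 0.05. The submitters' notes name STAR 2.7.10, Picard 2.26.0, SAMtools 1.14, bedtools 2.30.0 and MACS2 2.2.6. The C29F4 list was called on merged samples. Use of a control library is not given in the sources used here. The deposited fold is the ratio of pileup to background at the summit, each plus 1. The deposited −log10 p and −log10 q belong to the summit. The deposited integer score, 10 times −log10 q (C29F4) or −log10 p (ab9110), was not used further. Peak numbers reached 11010 in the C29F4 list of 11010 peaks. They reached 171702 and 237195 in the ab9110 DMSO and dTAG lists of 40816 and 16324 peaks, so these had been cut after calling. Peak limits, on which the overlap rule rests, may therefore come from unlike cutoffs. Read totals are unknown. The lowest reconstructed background among solved peaks gave mean coverages of 3.64 (C29F4), 2.11 (ab9110 DMSO), 1.23 (ab9110 dTAG) and 0.978 fragments (input).

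Pileup and background were solved from fold and p for 100% of peaks after rounding. The lowest C29F4 background, 2.14, lay below the mean coverage and was not among the solved values. Overlap meant at least 1 bp. Sequence and soft-masking came from RefSeq GRCm38, genes from GENCODE M21. Windows of 301 bases were compared with blastn 2.17.0 (megablast, word size 16, at least 200 bases). Windows outside a found element took their place from their best alignment to one. Python 3.11.15 and SciPy 1.17.1 were used. Overlap, reconstruction, thinning, word counts and frame search were tested on simulated data. Peaks are not replicates, so no p-value was computed. The named regions were the 10 strongest C29F4-only peaks without input overlap, the 3 strongest in each masking context and at protein-coding starts, the densest 1-Mb windows, those nearest the overlap limit, the 4 families with the most C29F4-only peaks and the strongest of each gene group. The C29F4-only set, the 12 gene groups and the 10 motifs were chosen with earlier results of these data known; the element search, the contrasts in subsets and the upstream sequences were added after seeing the data. Alternatives covered overlap, q-value, input, fold, identity and distance limits. Upstream sequences were the strongest not on chromosome 18, whose sequences are not shown.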

Additional observations from a re-analysis of the deposited data

How the results depend on the processing

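No paired analysis was possible because the C29F4 samples that share replicate numbers were deposited as 1 merged list; for the same reason no replicate could be left out. Of the alternative values of 13 results, 58 stayed within the 95% interval of the reported value and 43 moved outside it. Masked bases and expected calls are not counts of peaks, but their intervals treated them as such. Whether those values moved is therefore approximate. Input overlap without peaks in input, and the share within 500 bp after extending ab9110 peaks by 500 bp, have no value by construction. With 50% covered counted as shared, the C29F4-only share was 39.0%, masked bases 42.9%, long runs 13.7%, GC 43.2%, fold percentile 39.5, expected calls 65.4%, within 500 bp 24.7%, multicopy 15.2%, copies in ab9110 peaks 24.0% and families 21.3%. Extending ab9110 peaks by 500 bp gave a share of 28.9%. With C29F4 q under 0.001 the share was 26.1%, masked bases 37.8%, expected calls 79.1%, copies 20.0% and families 17.2%. With that q for all lists, values were 40.4% for the share, 6.97% near starts, 43.9% GC, 81.1% expected calls, 4.26% within 500 bp, 18.9% copies and 0.0557% in input. With C29F4-only peaks limited to folds at or above the list median, they were 11.8% of the full list (22.7% of the peaks with such folds), 4.70% near starts, 57.1% intergenic, 41.2% GC, 61.7 for the percentile, 86.5% expected calls and 8.40% within 500 bp. Long runs held 13.9% at 3 kb and 17.4% after joining runs, and 19.5% lay within 5 kb of a start and 21.8% within 2 kb of an ab9110 DMSO peak. Any repeated 100-base word gave 21.5% multicopy, all repeated 7.61%. Copies were 28.4% at 80% and 16.6% at 95% identity, families 25.9% and 13.8%. Ranking by −log10 q gave the 28.1 percentile, and dTAG coverage 29.3% expected calls. Leaving out chromosome 8, chosen after seeing the data, gave a share of 30.7%. In each alternative set of peaks, GC, masked share and long runs were lower in C29F4-only peaks than in the others; the causes of the shifts were not tested. By thinning, 33.7% of C29F4-only peaks had under 50% chance of passing at ab9110 DMSO depth; the part of depth in the missing calls was not tested.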
